A study of Mus musculus with 18 samples.

Results

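The genes described here encode the nuclear subunits of the mitochondrial oxidative phosphorylation machinery and a few proteins that share their symbols. They were taken by symbol alone, as the protein-coding rows that begin with *Nduf* followed by a, b, c, s or v, that read *Sdha* to *Sdhd*, or that begin with *Uqcr*, *Cox4* to *Cox8* or *Atp5*. This gave 93 genes of 49585 rows in the table, 21973 of them protein-coding. Complex I had 44 of these genes (7 core subunits, 10 accessory subunits of the peripheral arm, 19 of the membrane arm and 8 assembly factors), complex II 4, complex III 8, complex IV 20 and complex V 17. The 20 genes of complex IV were 11 widely expressed subunits, 8 isoforms of restricted expression and the supercomplex factor *Cox7a2l*, and the 17 of complex V were 5 subunits of the F1 head, 10 of the stalks and membrane part and 2 (*Atp5s* and *Atp5sl*) that are not subunits. Without assembly factors, restricted isoforms, *Cox7a2l* and the non-subunits, 74 widely expressed subunits remained, on which most statements below rest. A further 7 rows with matching symbols were processed pseudogenes and were not included.

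Kidney RNA was sequenced in bulk from 18 libraries in 6 groups of 3. All mice had the genotype labelled Lox-stop-Lox-TetOn-Lin28A, which the study's methods write as 2 alleles, TRE-Lin28A and Lox-stop-Lox-TetOn-rtTA, the stop cassette lying before the Dox-dependent activator rtTA. All received Dox in the drinking water at 1 g/L for 1, 2 or 5 weeks. OE mice also carried Six2Cre, while control mice did not, so that controls had both alleles and Dox but no recombination. The sample titles call the OE group Transgen and the control group WT, so that WT is read here as lacking Six2Cre. Six2-Cre acts in nephron progenitors, and the activator is thus unlocked in the nephron epithelium that descends from them and not in the vessels, stroma or leukocytes of the same kidney. The labels give neither age nor sex, and they do not say whether the 3 libraries of a group came from separate mice, so that p-values measure the spread between these libraries. *Xist*, transcribed from the inactive X chromosome of females, was above 100 normalized reads (reads divided by a size factor of the library) in 0, 1 and 1 of 3 control libraries and in 1, 2 and 1 of 3 OE libraries at 1, 2 and 5 weeks, so that the sexes were not balanced between the groups. With *Xist* as a covariate the counts of genes called lower, given below as 72, 88 and 69, were 67, 87 and 72. In bulk RNA, fewer cells of a type and less RNA per cell cannot be told apart.

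Oxidative phosphorylation passes electrons from NADH (complex I) and succinate (complex II) through ubiquinone to complex III, over cytochrome c to complex IV and on to oxygen. The protons pumped by complexes I, III and IV drive ATP synthase, complex V. Apart from complex II, each complex joins subunits encoded in the nucleus with a few encoded in mitochondrial DNA. The proximal tubule and the thick ascending limb of the nephron are rich in mitochondria and depend on this machinery for solute transport.

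Each library held 21176911 to 28686369 counted reads. *Lin28a* measured 14.4 to 28.5 normalized reads over the 9 control libraries, 41737 to 68744 in OE kidneys at 1 week, 52622 to 116461 at 2 weeks and 420 to 615 at 5 weeks, and no OE library overlapped a control. Genes with a mean above 10 were tested with limma on log2(normalized reads + 1), 16984 in all, and adjusted p-values run over all of them. Of the 93 genes 91 passed this filter. The others were the testis isoforms *Cox8c*, listed at 0 in all 18 libraries, and *Cox7b2*, which stayed between 0 and 6.22 normalized reads.

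Oxidative phosphorylation transcripts were lower in OE kidneys at all 3 weeks, most of all at 2 weeks. At 1 week 72 of the 91 tested genes were lower and 0 higher at an adjusted p under 0.05, where 15.6% of all genes were called lower and 18.7% higher. At 2 weeks 88 were lower and 0 higher, against 28.8% and 28.9% of all genes. At 5 weeks 69 were lower and 0 higher, against 7.9% and 7.67%. The median log2 fold change of the 91 genes was -0.64 at 1 week, -1.47 at 2 weeks and -0.59 at 5 weeks, while the median over all genes was -0.02, 0.01 and 0.02. In levels, the median gene stood at 64.3%, 36% and 66.6% of its control level. A fall of more than 1 on the log2 scale was called for 1 gene at 1 week, 77 at 2 weeks and 3 at 5 weeks, where 5.02%, 16.8% and 3.03% of all genes passed.

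The libraries were well separated. All 3 OE libraries lay below all 3 control libraries of the same week for 82 of the 91 genes at 1 week, 87 at 2 weeks and 81 at 5 weeks, against 24.1%, 29.9% and 17.8% of all genes. Of the 74 widely expressed subunits 67, 74 and 61 were lower at the 3 weeks in turn, and none was higher. Their median log2 fold change was -0.65, -1.52 and -0.60, or 63.7%, 35.0% and 66.0% of control. At 5 weeks the count rested on few libraries, since 33 of all 91 genes were called without the second OE library and 37 when the libraries of that week were fitted alone.

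The reads of the whole set tell the same in shares of the library. The 93 genes together took 2.92%, 2.89% and 3.08% of all counted reads in controls at 1, 2 and 5 weeks (means of 3 libraries), and 2.11%, 1.28% and 2.27% in OE kidneys. These shares do not depend on the size factors. Scaling each library by its total instead moved the median of all genes up by 0.20, 0.37 and 0.15 on the log2 scale at the 3 weeks. Over all genes the calls lower and higher were then 1512 and 4728 (1 week), 3249 and 7455 (2 weeks) and 806 and 2365 (5 weeks), against 2648 and 3180, 4891 and 4910, and 1341 and 1302 with the size factors. On that scale 49, 83 and 42 of the 91 genes were lower and 0, 2 and 0 higher. With quantile normalization 51, 88 and 44 of the genes called lower with the size factors were still called, and at 5 weeks 37 were when the libraries of that week were fitted alone. Scaling by totals divides each library by a single constant, so that the set's median relative to that of all genes could hardly change. It was -0.62, -1.48 and -0.60 with library totals and -0.62, -1.49 and -0.61 with the size factors. The likeness of these values is thus no check on the scaling.

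**Figure D1:**
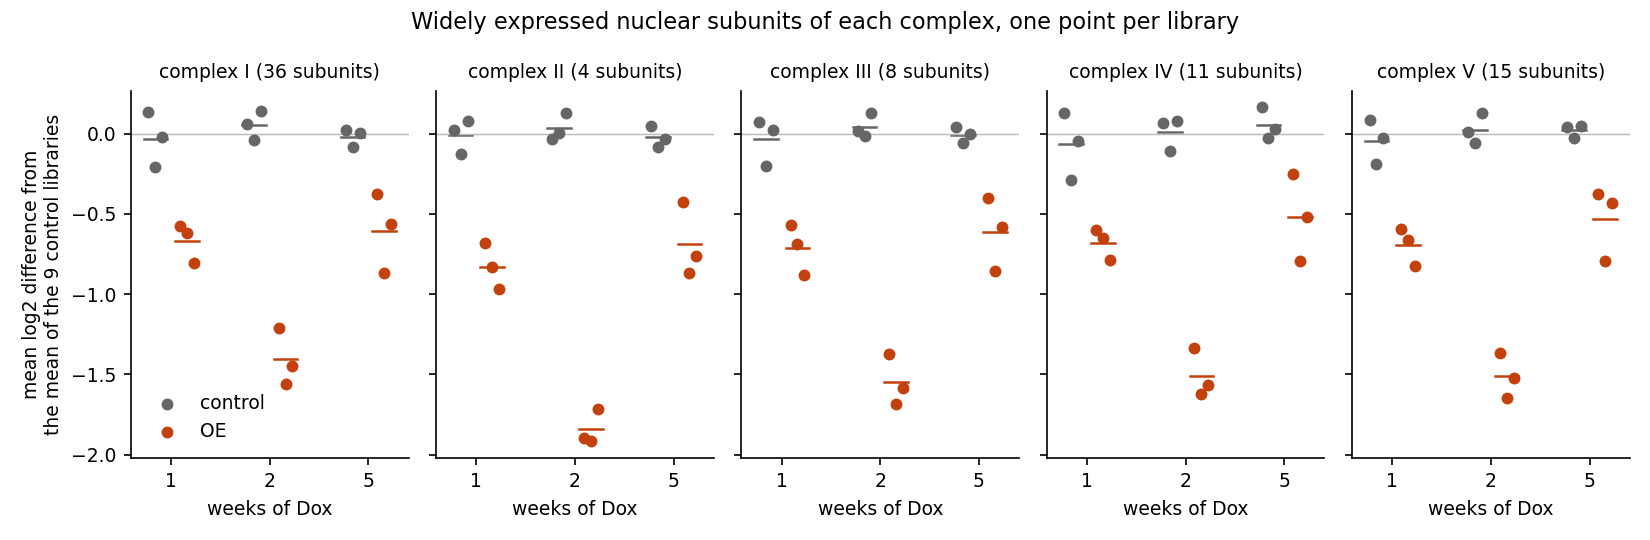
Each point is 1 library, placed by the mean log2 difference of a complex's widely expressed subunits from their mean over the 9 control libraries (vertical axis, log2), with weeks of Dox along the horizontal axis, 1 panel per complex and a line at each group's mean. In every panel the OE libraries lie below the controls of the same week and are lowest at 2 weeks, between -1.92 and -1.72 in complex II.

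In each of the 5 complexes the OE libraries of a week all had lower means than the controls of that week. For all 74 subunits together controls lay between -0.21 and 0.13 on the log2 scale, and OE libraries between -0.82 and -0.59 (1 week), -1.62 and -1.31 (2 weeks) and -0.84 and -0.36 (5 weeks). The percentages by complex are relative to the mean over the controls of all weeks, not to the controls of the same week. Averaged over the subunits of complex I, OE kidneys stood at 62.9%, 37.8% and 65.8% of that mean at 1, 2 and 5 weeks. Complex III stood at 61.1%, 34.2% and 65.3%, complex IV at 62.4%, 35.2% and 69.7%, and complex V at 61.8%, 35.1% and 69.0%. Complex II, the only one without a subunit from mitochondrial DNA, stood lowest, at 56.3%, 27.9% and 62.2%. At 2 weeks its 3 OE libraries lay between -1.92 and -1.72 on the log2 scale, and those of complex I between -1.56 and -1.21, with no overlap. The lowest OE libraries of the other complexes came closer, at -1.68 (complex III), -1.62 (complex IV) and -1.65 (complex V). At 1 and 5 weeks the ranges of complexes I and II overlapped. Both scores come from the same libraries, however, and complex II was the lower in each OE library. At 1 week complex II stood at -0.685, -0.832 and -0.969 and complex I at -0.577, -0.622 and -0.806. At 5 weeks complex II stood at -0.424, -0.870 and -0.764 and complex I at -0.379, -0.867 and -0.565. In complex I the controls of 1, 2 and 5 weeks themselves stood at 97.8%, 103.7% and 98.7% of the mean over all weeks. In complex IV the controls stood at 95.4%, 100.9% and 103.9%. Small differences between complexes in these percentages can thus reflect the controls. No test was made between complexes.

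Promoter sequence is shown because the genes moved together and classical work ties several of them to the factors NRF1, GABP, YY1 and the estrogen-related receptors. RefSeq sequence of GRCm38.p6 from 250 bases before to 50 after the start was held for 77 of the 93 genes and for 27025 genes in all, and exact letters were searched on both strands. The NRF1 palindrome GCGCATGCGC occurred in 7 of the 77 windows, 9.09% against 1.07% of all genes. The YY1 letters AAGATGGCG occurred in 9, 11.7% against 1.64%. The ETS letters CCGGAAGT, read by GABP, occurred in 5, 6.49% against 4.31%, and the CCAAT box letters CCAATCAG in 4, 5.19% against 4.70%. The letters TCAAGGTCA of the estrogen-related receptors occurred in 2, 2.60% against 0.466%. Apart from any match, most windows held none of these exact letters, which says nothing on whether a factor binds there. The 100 bases before the start are given for 4 genes with a match, in capitals, and for *Cox7a2l*, which was lower at no week. Of these 4 genes *Ndufa11* was not called at 5 weeks (log2 fold change -0.44) and *Uqcrh* not at 1 week (-0.39). Both *Ndufa11* and *Uqcrh* were named after their values were seen. Of the 53 genes with a window that were lower at all 3 weeks 18 held at least 1 of the 5 motifs and 35 held none, and of the other 24 genes 9 held one and 15 none. *Sdha*, *Sdhb*, *Ndufa4*, *Atp5b*, *Atp5g1* and *Cox7a1*, which fell at all 3 weeks, were among those without. *Atp5g3* (chr2:73911327-73911426, minus strand) has the receptor letters in reverse complement, *Ndufa11* (chr17:56717662-56717761, plus strand) the NRF1 palindrome, *Uqcr11* (chr10:80406822-80406921, minus strand) the ETS letters and *Uqcrh* (chr4:116075071-116075170, minus strand) the ETS letters in reverse complement. The window of *Cox7a2l* (chr17:83514334-83514433, minus strand) held none of the 5 motifs.
Atp5g3: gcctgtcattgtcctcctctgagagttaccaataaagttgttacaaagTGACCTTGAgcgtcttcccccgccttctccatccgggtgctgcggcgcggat
Ndufa11: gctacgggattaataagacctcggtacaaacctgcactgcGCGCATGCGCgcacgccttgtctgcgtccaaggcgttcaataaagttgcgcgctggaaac
Uqcr11: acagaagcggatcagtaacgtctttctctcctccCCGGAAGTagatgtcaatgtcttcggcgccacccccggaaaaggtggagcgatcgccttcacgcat
Uqcrh: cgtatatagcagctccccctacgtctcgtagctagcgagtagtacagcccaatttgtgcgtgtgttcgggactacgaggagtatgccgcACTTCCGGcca
Cox7a2l: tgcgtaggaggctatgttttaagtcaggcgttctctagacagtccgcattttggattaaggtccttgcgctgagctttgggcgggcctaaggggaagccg

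Complex I oxidizes NADH in its peripheral arm and pumps protons in its membrane arm. Of its 36 subunits 33 were lower at 1 week, 36 at 2 weeks and 30 at 5 weeks, with medians of -0.65, -1.42 and -0.59. The 7 core subunits, which between them hold the flavin and iron-sulfur clusters, were all lower at each week. Of the 10 accessory subunits of the peripheral arm 8, 10 and 6 were lower, and of the 19 of the membrane arm 18, 19 and 17.

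*Ndufs1*, a core subunit with iron-sulfur clusters, changed most in complex I. It lies on chromosome 1 of GRCm38 from 63143596 to 63176833 on the minus strand. *Ndufs1* at 1 week measured 11262, 10819 and 11856 normalized reads in the control libraries and 6991, 5579 and 4635 in the OE libraries. *Ndufs1* at 2 weeks measured 10058, 11772 and 12122 in controls and 2187, 2203 and 2508 in OE kidneys. *Ndufs1* at 5 weeks measured 10913, 9860 and 10835 in controls and 7364, 4720 and 5186 in OE kidneys. The groups were apart at each week, and the OE libraries at 2 weeks were below all others. The log2 fold change was -1.0 ± 0.16 (standard error, n = 3 against 3) at 1 week (limma adjusted p = 0.000185), -2.30 ± 0.16 at 2 weeks (limma adjusted p = 1.09e-08) and -0.90 ± 0.16 at 5 weeks (limma adjusted p = 0.00164).

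Other core subunits moved in the same way. *Ndufv1*, which binds NADH, fell at all 3 weeks, its log2 fold change being -0.78, -1.57 and -0.52. Changes among the 7 core subunits at 2 weeks ranged from -2.30 for *Ndufs1* to -1.10 for *Ndufs3*.

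*Ndufb8*, an accessory subunit of the membrane arm that was named after its values were seen, did not follow the others at 1 week. *Ndufb8* at 1 week measured 6731, 5837 and 5877 normalized reads in controls and 5985, 7508 and 6057 in OE kidneys. *Ndufb8* at 2 weeks measured 7431, 6378 and 7758 in controls and 4774, 4748 and 4253 in OE kidneys. *Ndufb8* at 5 weeks measured 6804, 7112 and 7214 in controls and 5258, 5148 and 5194 in OE kidneys. The groups overlapped at 1 week and were apart later. Its log2 fold change was 0.08 ± 0.11 at 1 week (limma adjusted p = 0.607), -0.64 ± 0.11 at 2 weeks (limma adjusted p = 8.12e-05) and -0.44 ± 0.11 at 5 weeks (limma adjusted p = 0.012). At 1 week the sign turned to -0.03 without the second OE library. *Ndufa2*, of the peripheral arm and also named after its values were seen, was called at 2 weeks alone, with log2 fold changes of -0.47, -0.89 and -0.29.

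The 8 assembly factors of complex I, which build the complex but are not part of it, changed less. Of these 3, 7 and 4 were lower at 1, 2 and 5 weeks, with medians of -0.40, -0.86 and -0.50. The difference between assembly factors and subunits was not tested. *Ndufaf1*, which works in the assembly of the membrane arm and was named after its values were seen, was called at no week. *Ndufaf1* at 2 weeks measured 868, 962 and 1012 normalized reads in controls and 1430, 1080 and 859 in OE kidneys, which overlap. Its log2 fold change was 0.11, 0.22 and -0.43 at the 3 weeks (limma adjusted p = 0.656, 0.301 and 0.11). When libraries were scaled by their totals it was called higher at 2 weeks.

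Complex II, succinate dehydrogenase, joins the tricarboxylic acid cycle to the electron transport chain. All 4 subunits were lower at each week, with medians of -0.83, -1.92 and -0.68. *Sdha*, the flavoprotein that oxidizes succinate, lies on chromosome 13 of GRCm38 from 74322254 to 74350280 on the minus strand. *Sdha* at 1 week measured 23276, 24620 and 28686 normalized reads in controls and 14482, 12352 and 12242 in OE kidneys. *Sdha* at 2 weeks measured 23295, 25789 and 26314 in controls and 4845, 5357 and 6469 in OE kidneys. *Sdha* at 5 weeks measured 25043, 24195 and 23499 in controls and 17336, 12342 and 12561 in OE kidneys. Controls stayed in a narrow range, the groups never overlapped, and at 5 weeks the first OE library was higher than the other two. The log2 fold change was -0.97 ± 0.15 at 1 week (limma adjusted p = 0.000115), -2.19 ± 0.15 at 2 weeks (limma adjusted p = 7.59e-09) and -0.80 ± 0.15 at 5 weeks (limma adjusted p = 0.00198).

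*Sdhb*, the iron-sulfur subunit, moved like *Sdha*. *Sdhb* at 1 week measured 15342, 12174 and 14536 normalized reads in controls and 7583, 7061 and 6347 in OE kidneys. *Sdhb* at 2 weeks measured 14256, 13397 and 15180 in controls and 3145, 3455 and 3803 in OE kidneys. *Sdhb* at 5 weeks measured 14422, 12601 and 13639 in controls and 9163, 7833 and 7523 in OE kidneys. Again all OE libraries were below all controls. Its log2 fold change was -1.0 ± 0.12, -2.04 ± 0.12 and -0.73 ± 0.12 (limma adjusted p = 1.39e-05, 2.65e-09 and 0.000931). The membrane anchors fell less, with log2 fold changes of -0.70, -1.80 and -0.64 for *Sdhc* and of -0.61, -1.47 and -0.48 for *Sdhd*.

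Complex III passes electrons from ubiquinol to cytochrome c. Of its 8 subunits 7, 8 and 6 were lower at 1, 2 and 5 weeks, with medians of -0.73, -1.56 and -0.67. *Uqcr11*, a small accessory subunit, changed most at 1 and 2 weeks. *Uqcr11* at 1 week measured 4803, 4055 and 4773 normalized reads in controls and 2691, 2369 and 2380 in OE kidneys. *Uqcr11* at 2 weeks measured 4990, 4894 and 5587 in controls and 1425, 841 and 1261 in OE kidneys. *Uqcr11* at 5 weeks measured 4832, 4347 and 4490 in controls and 3293, 2346 and 2970 in OE kidneys. No OE library reached a control, and the lowest values were those at 2 weeks. The log2 fold change was -0.87 ± 0.16, -2.16 ± 0.16 and -0.68 ± 0.16 (limma adjusted p = 0.00066, 2.05e-08 and 0.0104).

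*Uqcrc2*, a core protein of complex III without a redox centre, changed most at 5 weeks. It lies on chromosome 7 of GRCm38 from 120635176 to 120659524 on the plus strand. *Uqcrc2* at 1 week measured 13080, 12666 and 15401 normalized reads in controls and 9730, 8458 and 7410 in OE kidneys. *Uqcrc2* at 2 weeks measured 11778, 14047 and 14034 in controls and 3101, 5110 and 4051 in OE kidneys. *Uqcrc2* at 5 weeks measured 13630, 13961 and 12934 in controls and 9866, 7451 and 6983 in OE kidneys. All OE libraries were below all controls. The log2 fold change was -0.69 ± 0.17, -1.73 ± 0.17 and -0.75 ± 0.17 (limma adjusted p = 0.00527, 3.41e-07 and 0.00768). The other core protein *Uqcrc1* had log2 fold changes of -0.53, -1.33 and -0.68, and *Uqcrfs1*, the Rieske iron-sulfur protein, of -0.77, -1.84 and -0.69, all of which passed the test.

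**Figure D2:**
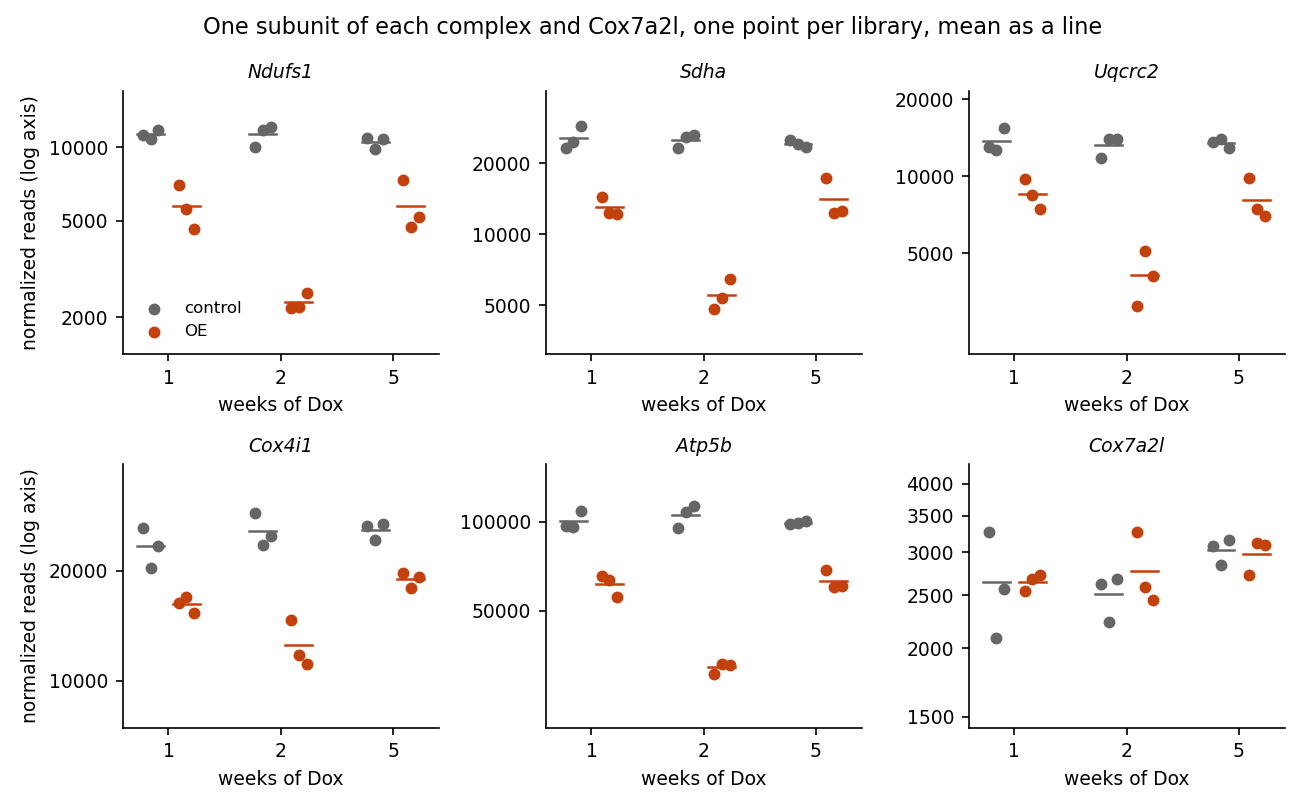
Normalized reads (vertical axis, log scale) of *Ndufs1*, *Sdha*, *Uqcrc2*, *Cox4i1*, *Atp5b* and *Cox7a2l*, each point being 1 library and each line a group mean, by weeks of Dox along the horizontal axis. In the first 5 genes the OE libraries lie below the controls at each week, as for *Sdha* at 2 weeks with 4845 to 6469 against 23295 to 26314. For *Cox7a2l* the OE and control libraries overlap at each week.

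Complex IV reduces oxygen to water. Of its 11 widely expressed subunits 10, 11 and 9 were lower, with medians of -0.60, -1.53 and -0.56. *Cox4i1*, the largest of the nuclear subunits, lies on chromosome 8 of GRCm38 from 120668222 to 120674207 on the plus strand. *Cox4i1* at 1 week measured 26185, 20347 and 23325 normalized reads in controls and 16267, 16990 and 15315 in OE kidneys. *Cox4i1* at 2 weeks measured 28686, 23455 and 24852 in controls and 14623, 11742 and 11147 in OE kidneys. *Cox4i1* at 5 weeks measured 26399, 24296 and 26882 in controls and 19706, 17949 and 19162 in OE kidneys. The groups were apart, although the gap was narrower than for *Sdha*. As a log2 fold change this was -0.52 ± 0.13, -1.04 ± 0.13 and -0.45 ± 0.13 (limma adjusted p = 0.00605, 4.47e-06 and 0.0296), the smallest of the 11 at 2 and 5 weeks. The calls of *Cox4i1* at 1 and 5 weeks were lost with quantile normalization (-0.06 and -0.17) and with library totals (-0.32 and -0.29). At 5 weeks the call was also lost with no filter on low values, with the libraries of that week alone and without single libraries of that week, at -0.49 to -0.41.

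*Ndufa4*, first assigned to complex I and later placed in complex IV, changed most of the 11 at 1 and 2 weeks. *Ndufa4* at 1 week measured 22580, 14647 and 19549 normalized reads in controls and 11486, 10878 and 9566 in OE kidneys. *Ndufa4* at 2 weeks measured 18505, 17454 and 20121 in controls and 5047, 4221 and 4724 in OE kidneys. *Ndufa4* at 5 weeks measured 20029, 17820 and 18653 in controls and 14918, 9891 and 12350 in OE kidneys. OE libraries were below the controls at each week, and closest to them at 5 weeks. Its log2 fold change was -0.81 ± 0.16, -2.00 ± 0.16 and -0.62 ± 0.16 (limma adjusted p = 0.0011, 4.08e-08 and 0.0161).

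*Cox7b*, named after its values were seen, was called at 2 weeks alone, its log2 fold change being -0.67, -1.71 and -0.66. At 5 weeks it measured 27557, 10855 and 11236 normalized reads in controls and 19356, 5863 and 7483 in OE kidneys, the first library of either group being far above the other two. Without the first OE library the change at 5 weeks was -1.18 and passed the test, and without the first control library it was -0.22 and did not.

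*Cox7a2l* joins complexes III and IV into supercomplexes and shares its name with a family of complex IV subunits. Like *Ndufaf1* and *Cox4i2*, it was called at no week. It was named after its values were seen. It lies on chromosome 17 of GRCm38 from 83501918 to 83517330 on the minus strand. *Cox7a2l* at 1 week measured 3271, 2091 and 2565 normalized reads in controls and 2548, 2684 and 2721 in OE kidneys. *Cox7a2l* at 2 weeks measured 2624, 2234 and 2675 in controls and 3262, 2590 and 2453 in OE kidneys. *Cox7a2l* at 5 weeks measured 3081, 2843 and 3159 in controls and 2721, 3117 and 3097 in OE kidneys. The groups overlapped at each week. This gave a log2 fold change of 0.03, 0.13 and -0.03, each ± 0.14 (limma adjusted p = 0.9, 0.44 and 0.933), and the sign at 1 and 5 weeks turned with the scaling and with single libraries. With library totals it was called higher at 2 weeks, by 0.50 on the log2 scale.

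Isoforms of complex IV with restricted expression were few in reads but spread widely. *Cox7a1*, *Cox6a2* and *Cox8b* are known from heart and skeletal muscle, and *Cox7a1* and *Cox8b* also from brown fat. *Cox6b2*, *Cox7b2* and *Cox8c* are known from testis, *Cox4i2* from lung, and *Ndufa4l2* is induced by hypoxia. Per kilobase of exon the controls held 1468 normalized reads of *Cox8b*, 1398 of *Cox7a1*, 285 of *Cox6b2*, 173 of *Ndufa4l2*, 64.6 of *Cox6a2* and 44.9 of *Cox4i2*, where the widely expressed *Cox8a* held 24388 and *Cox4i1* 16088. Of the 6 isoforms tested 1, 5 and 3 were lower at 1, 2 and 5 weeks, with medians of -0.89, -2.79 and -1.36.

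*Cox7a1* lies on chromosome 7 of GRCm38 from 30184144 to 30186078 on the plus strand, and was the only gene of the set called with a fall of more than 1 at 1 week. *Cox7a1* at 1 week measured 739, 761 and 720 normalized reads in controls and 368, 363 and 339 in OE kidneys. *Cox7a1* at 2 weeks measured 837, 709 and 755 in controls and 65.7, 53.4 and 126 in OE kidneys. *Cox7a1* at 5 weeks measured 759, 703 and 751 in controls and 432, 165 and 354 in OE kidneys. Controls hardly varied, and all OE libraries were below them. On the log2 scale the change was -1.05 ± 0.30, -3.31 ± 0.30 and -1.32 ± 0.30 (limma adjusted p = 0.0118, 1.17e-07 and 0.00713).

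*Cox8b*, on chromosome 7 of GRCm38 from 140898945 to 140900446 on the minus strand, varied within groups instead. *Cox8b* at 1 week measured 304, 847 and 517 normalized reads in controls and 274, 6.68 and 518 in OE kidneys. *Cox8b* at 2 weeks measured 833, 756 and 35.3 in controls and 14.2, 2.67 and 17.8 in OE kidneys. *Cox8b* at 5 weeks measured 760, 291 and 415 in controls and 369, 256 and 9.67 in OE kidneys. Groups overlapped at 1 and 5 weeks, and single libraries of both genotypes were low. By limma the log2 fold change was -2.31 ± 1.52 and -2.17 ± 1.52 at 1 and 5 weeks (limma adjusted p = 0.26 and 0.364), and -4.80 ± 1.52 at 2 weeks (limma adjusted p = 0.0126). The call at 2 weeks was lost without the second OE library (-4.07), without the first control library (-4.03) and without the second (-4.10).

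Markers of brown fat were low in several of the libraries in which *Cox8b* was low. The summed normalized reads of *Ucp1*, *Cidea* and *Elovl3* at 1 week spanned 906 to 2806 over the controls and 11.4 to 1098 over the OE libraries, at 2 weeks 162 to 4374 and 56.9 to 238, and at 5 weeks 952 to 2597 and 7.03 to 998. In the second OE library of 1 week *Cidea* and *Cox8b* were both 6.68, and in the third of 5 weeks 6.15 and 9.67. In the third control library of 2 weeks they were 55.8 and 35.3. The other OE libraries of 1 week had *Cidea* at 485 and 1013 with *Cox8b* at 274 and 518. Those of 5 weeks had 635 and 821 with 369 and 256. Not all libraries went together. The third OE library of 2 weeks had *Cidea* at 227 and *Cox8b* at 17.8, and the third of 1 week had *Ucp1* at 84.1. With the *Cidea* level as a covariate, chosen after seeing the data, the change of *Cox8b* was -0.34, -2.81 and -0.40 and still called at 2 weeks, while that of *Cox7a1* was -1.07, -3.33 and -1.34. The counts of all 91 genes lower were again 72, 88 and 69 with this covariate, but not of the same genes throughout. Of the genes called without it 71, 88 and 66 were still called. Of 6 muscle markers 1, *Tnnt3*, a troponin of fast skeletal muscle, passed the filter, and *Ckm* and *Myh4* were at or near 0. *Tnnt3* measured 1.07 to 7.80 normalized reads over the controls and 175 to 244 over the OE libraries at 1 week, 0 to 6.83 and 69.3 to 116 at 2 weeks, and 2.73 to 15.8 and 1.76 to 18.9 at 5 weeks. Unlike the muscle isoforms of complex IV it rose, by 5.28 and 5.09 on the log2 scale at 1 and 2 weeks (limma adjusted p = 0.000148 and 5.62e-05), and was at 0.01 at 5 weeks (limma adjusted p = 0.996). The summed normalized reads of the 6 muscle markers spanned 21.3 to 64.5 over the controls of 1 week and 198 to 251 over its OE libraries, and likewise 19.4 to 27.1 and 89.7 to 131 at 2 weeks, and 13.7 to 52.8 and 13.1 to 31.5 at 5 weeks. In the OE libraries of 1 and 2 weeks *Tnnt3* made up most of this sum, which thus does not show a rise of the other markers. The part of brown fat and muscle in the change of these isoforms was not tested.

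*Cox6a2* was called at 2 and 5 weeks. *Cox6a2* at 1 week measured 22.3, 54.7 and 61.8 normalized reads in controls and 37.6, 8.58 and 12 in OE kidneys. *Cox6a2* at 2 weeks measured 63.3, 53.3 and 66.1 in controls and 16.9, 1.78 and 8.10 in OE kidneys. *Cox6a2* at 5 weeks measured 27.5, 22.8 and 23.5 in controls and 11.7, 0 and 0 in OE kidneys. The groups overlapped at 1 week and were apart at 2 and 5 weeks, at levels of few reads. As a log2 fold change this was -1.36 ± 0.85 at 1 week, -3.01 ± 0.85 at 2 weeks and -3.45 ± 0.85 at 5 weeks (limma adjusted p = 0.234, 0.00621 and 0.0121). The call at 5 weeks was lost with edgeR (-2.61), with the libraries of that week alone (-3.45) and without the second or the third OE library (-2.84 each).

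*Cox6b2* fell at 2 weeks and not at 5 weeks. *Cox6b2* at 1 week measured 255, 384 and 374 normalized reads in controls and 212, 228 and 227 in OE kidneys. *Cox6b2* at 2 weeks measured 399, 286 and 366 in controls and 165, 88.1 and 149 in OE kidneys. *Cox6b2* at 5 weeks measured 316, 229 and 238 in controls and 473, 322 and 301 in OE kidneys. OE libraries were the lower ones at 1 and 2 weeks, and at 5 weeks the groups overlapped with OE on the higher side. On the log2 scale the change was -0.58 ± 0.24, -1.41 ± 0.24 and 0.47 ± 0.24 (limma adjusted p = 0.0784, 0.000113 and 0.212). Testis germ cell markers summed to at most 3.56 normalized reads in any library.

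*Ndufa4l2* at 2 weeks measured 161, 138 and 178 normalized reads in controls and 28.4, 15.1 and 38.9 in OE kidneys, and at 5 weeks 259, 181 and 214 against 188, 34.6 and 83.5. The groups were apart at 2 weeks and overlapped at 5 weeks. The change on the log2 scale was -0.67 ± 0.45, -2.58 ± 0.45 and -1.39 ± 0.45 (limma adjusted p = 0.27, 0.000115 and 0.0453), the last of which was close to the threshold. The call of *Ndufa4l2* at 5 weeks was lost with edgeR and DESeq2 (-1.09 each), with no filter, with the libraries of that week alone, with library totals (-1.23), upper-quartile rescaling (-1.36) or *Cidea* as a covariate (-1.33), and without single libraries, most of all the second OE library (-0.78). *Cox4i2*, at 7.48 to 54.9 normalized reads, was called at no week, with log2 fold changes of -0.73, -0.62 and -1.02.

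**Figure D3:**
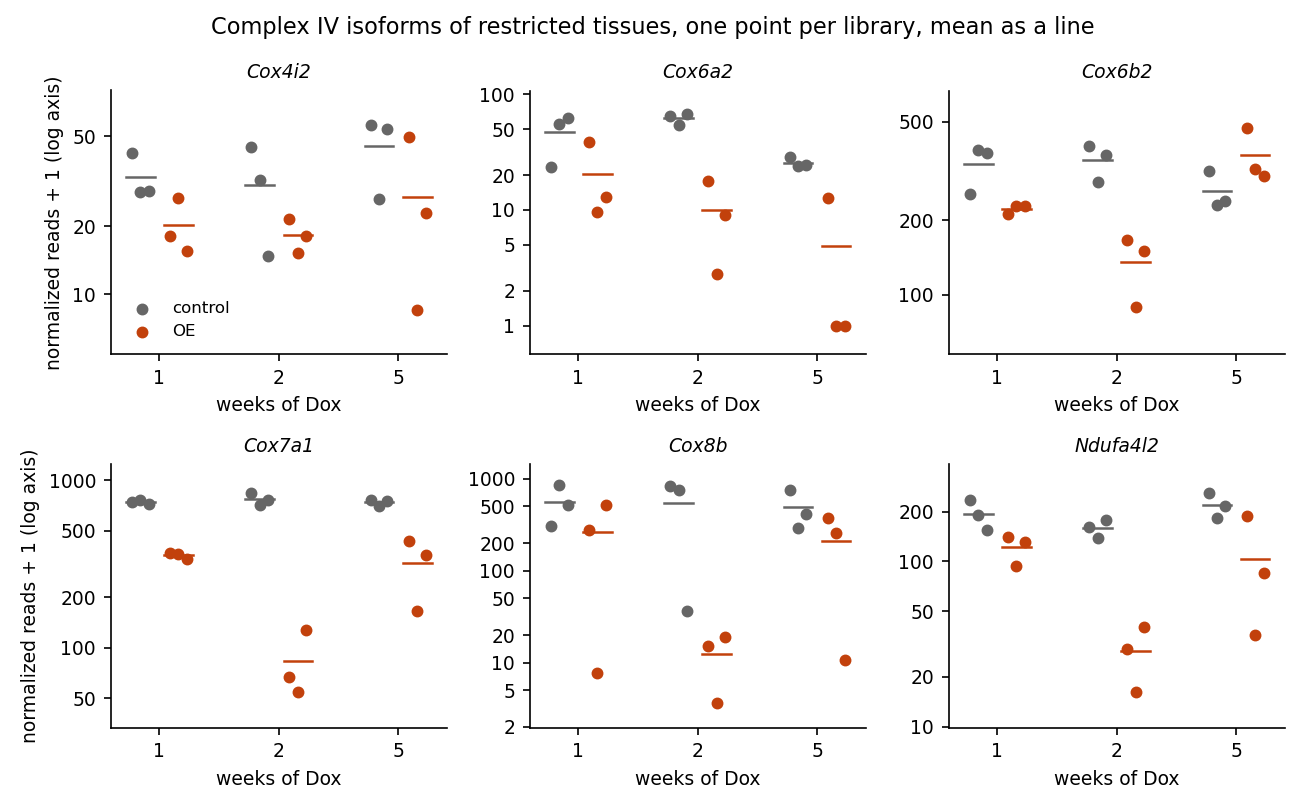
Normalized reads + 1 (vertical axis, log scale) of the 6 tested isoforms of restricted expression, each point being 1 library and each line a group mean, by weeks of Dox along the horizontal axis. *Cox7a1* separates the genotypes at each week, with 53.4 to 126 against 709 to 837 at 2 weeks, while *Cox8b* has low libraries in both genotypes.

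To compare each restricted isoform with its widely expressed counterpart, the log2 ratio of the pair was taken in each library. For *Cox7a1* to *Cox7a2* the ratio in OE minus that in control kidneys was -0.46, -1.64 and -0.67 at the 3 weeks, with the libraries apart each time. For *Cox6a2* to *Cox6a1* it was -1.59 at 2 weeks and -2.97 at 5 weeks, and for *Cox6b2* to *Cox6b1* 1.14 at 5 weeks, with the libraries apart in each. The values for *Cox6a2*, which had 0 reads in 2 OE libraries at 5 weeks, depend on the pseudocount and were -0.98 and -1.50 with 5 in place of 1. With 1 library left out they spanned -2.05 to -0.93 at 2 weeks and -4.19 to -2.28 at 5 weeks. In these 6 comparisons the exact permutation p was 0.1, the smallest that 3 against 3 libraries allow, so that none of the 18 comparisons could pass. The ratios of *Cox8b* to *Cox8a* (-1.62, -3.28 and -1.61), of *Cox4i2* to *Cox4i1* (-0.21, 0.43 and -0.57) and of *Ndufa4l2* to *Ndufa4* (0.15, -0.57 and -0.76) overlapped in at least 1 library at each week.

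Complex V uses the proton gradient to make ATP. Of its 15 subunits 13, 15 and 12 were lower at 1, 2 and 5 weeks, with medians of -0.65, -1.66 and -0.64. The F1 head gave 5, 5 and 4 of 5, and the stalks and membrane part 8, 10 and 8 of 10. *Atp5b*, the catalytic beta subunit and the most read gene of the set, lies on chromosome 10 of GRCm38 from 128083273 to 128090391 on the plus strand. *Atp5b* at 1 week measured 96677, 95817 and 108883 normalized reads in controls and 65414, 63382 and 55773 in OE kidneys. *Atp5b* at 2 weeks measured 95151, 107732 and 112878 in controls and 30573, 32996 and 32696 in OE kidneys. *Atp5b* at 5 weeks measured 98062, 99068 and 100142 in controls and 68474, 59927 and 60334 in OE kidneys. The genotypes were apart at each week. By limma the log2 fold change was -0.71 ± 0.15, -1.71 ± 0.15 and -0.66 ± 0.15 (limma adjusted p = 0.00151, 7.63e-08 and 0.00713). With quantile normalization the changes of *Atp5b* at 1 and 5 weeks were -0.26 and -0.32 and not called, and at 5 weeks the call was also lost with the libraries of that week alone. Its partner in the head *Atp5a1*, the alpha subunit, fell with log2 fold changes of -0.67, -1.69 and -0.67, and lost its calls at 1 and 5 weeks under quantile normalization (-0.25 and -0.20) and at 5 weeks in the fit of that week alone. *Atp5e*, the epsilon subunit, fell with -0.96 and -1.93 at 1 and 2 weeks, while -0.59 at 5 weeks was not called.

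The c subunit of the rotating ring is encoded by 3 genes, *Atp5g1*, *Atp5g2* and *Atp5g3*, whose mature proteins are the same and whose import sequences differ. In controls *Atp5g3* held 12886 normalized reads per kilobase of exon, *Atp5g1* 1226 and *Atp5g2* 353. *Atp5g1*, on chromosome 11 of GRCm38 from 96068852 to 96075670 on the minus strand, changed most in complex V at 2 and 5 weeks. *Atp5g1* at 2 weeks measured 5853, 5852 and 6800 normalized reads in controls and 1559, 1007 and 1520 in OE kidneys. This gave a log2 fold change of -0.89 ± 0.18, -2.20 ± 0.18 and -0.83 ± 0.18 (limma adjusted p = 0.0013, 4.99e-08 and 0.00621). The groups of *Atp5g1* were apart at each week.

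*Atp5g3*, on chromosome 2 from 73908447 to 73911326 on the minus strand, fell nearly as much. *Atp5g3* at 2 weeks measured 26912, 26867 and 32720 normalized reads in controls and 7862, 7380 and 8320 in OE kidneys, and its log2 fold change was -0.88, -1.87 and -0.51 at the 3 weeks. *Atp5g2*, on chromosome 15 from 102662864 to 102672352 on the minus strand, changed least of all complex V subunits at 1 and 2 weeks. *Atp5g2* at 2 weeks measured 599, 568 and 630 normalized reads in controls and 424, 443 and 389 in OE kidneys. Its libraries were apart at each week but close, and the log2 fold change was -0.24, -0.52 and -0.22, each ± 0.11 (limma adjusted p = 0.0893, 0.000567 and 0.184). With library totals the change at 2 weeks was -0.15 and not called. *Atp5g2* shares 35.8% of its stretches of 75 bases with annotated transcripts of other genes, which leaves its reads uncertain. For *Ndufaf2* and *Atp5o* this share was 63.2% and 34.2%. Both *Atp5g2* and *Atp5g3* were named after their values were seen.

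*Atp5l*, a membrane subunit with 39.2 normalized reads per kilobase in controls, went the other way at 5 weeks without passing the test. It was also named after its values were seen. *Atp5l* at 2 weeks measured 315, 289 and 254 normalized reads in controls and 151, 180 and 206 in OE kidneys. *Atp5l* at 5 weeks measured 262, 244 and 230 in controls and 249, 331 and 343 in OE kidneys. OE libraries were below controls at 2 weeks and mostly above them at 5 weeks. As a log2 fold change this was -0.48, -0.68 and 0.31, each ± 0.21 (limma adjusted p = 0.0807, 0.00967 and 0.333).

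**Figure D4:**
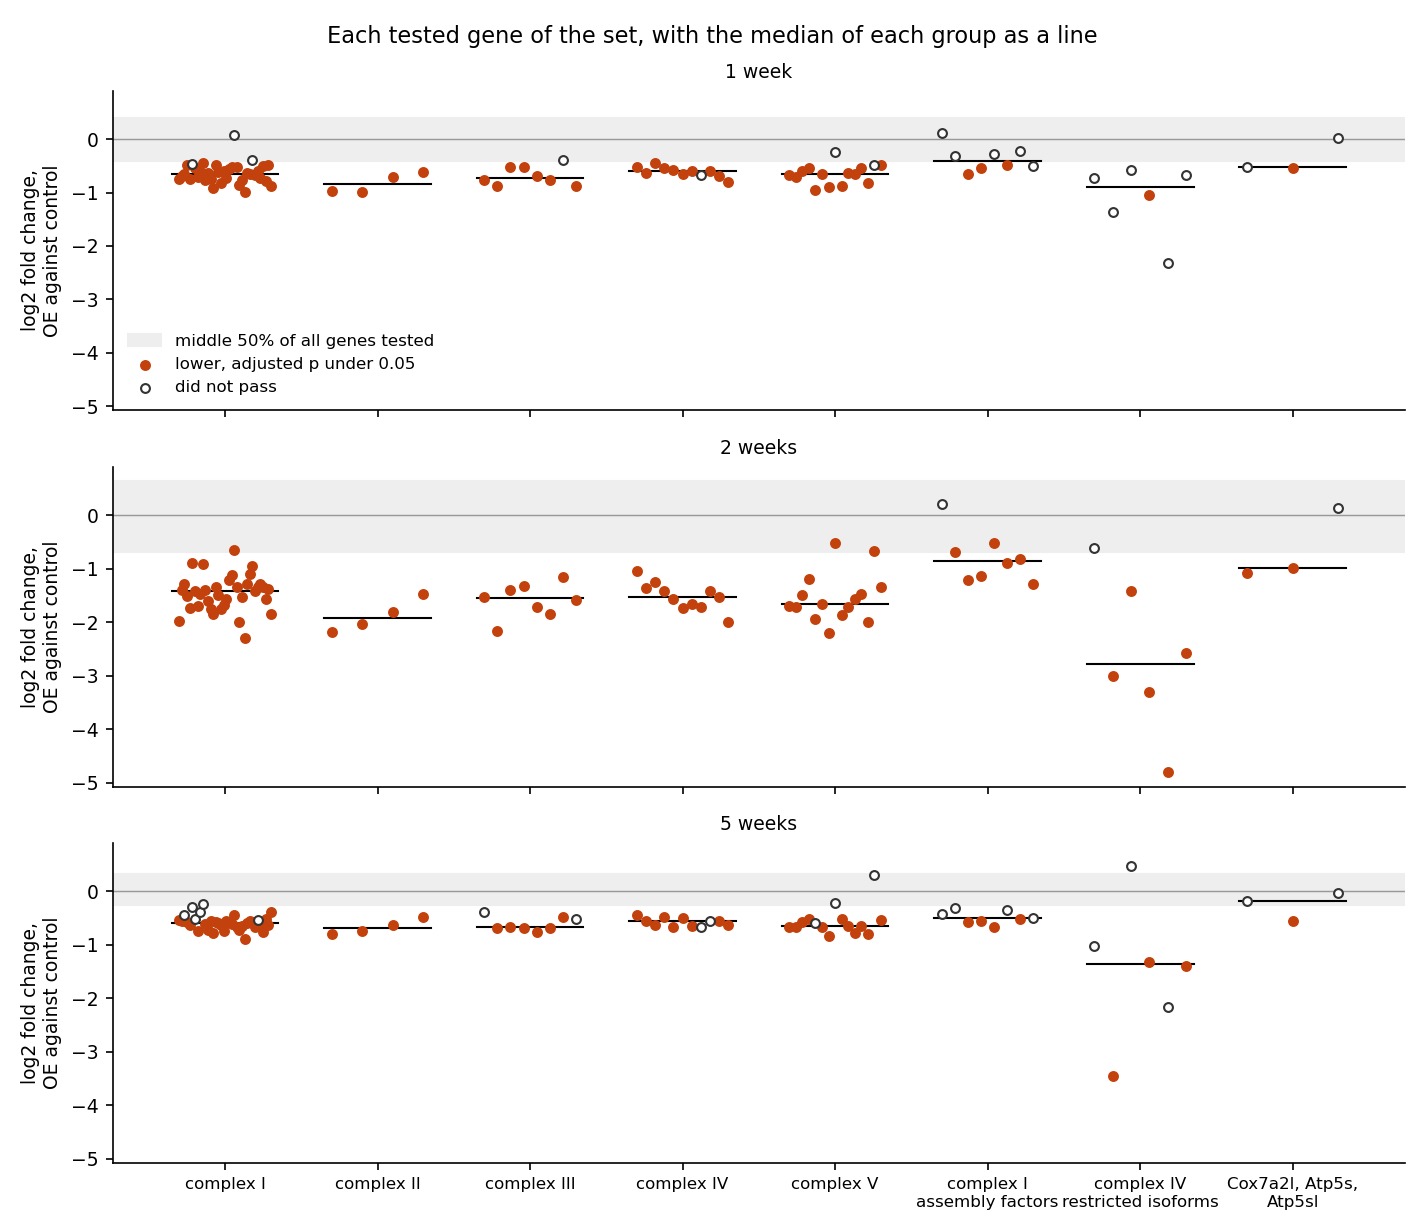
Log2 fold change of OE against control (vertical axis) of each of the 91 tested genes, grouped by complex and role along the horizontal axis, with 1 panel for each week and a line at the median of each group. Filled points passed the test and open points did not. The grey band holds the middle 50% of all 16984 genes, from -0.41 to 0.39 at 1 week, -0.70 to 0.64 at 2 weeks and -0.25 to 0.32 at 5 weeks, and most of the 91 genes lie below it.

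The effect of OE differed between weeks. From 1 to 2 weeks the log2 fold change became more negative for 57 of the 91 genes by the interaction term of limma, and less negative for 0, where 6.8% and 2.27% of all genes were called in these directions. From 2 to 5 weeks it became less negative for 72 and more for 0, against 14.9% and 14.4% of all genes. The median of these differences over the 91 genes was -0.86 and 0.89. Both were called for 55 genes, against 5.75% of all genes, and 86 of 91 had their most negative value at 2 weeks, as had 39.6% of all genes. These comparisons share the samples of 2 weeks, which enter them with opposite signs. Between 1 and 5 weeks 0 of 91 genes differed by limma (5 had an unadjusted p under 0.05, and adjusted p-values called 1 with edgeR and 4 with DESeq2), where 5.2% and 1.79% of all genes were called, which does not show that the effects were alike.

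Among the genes called *Cox7a1* had the largest difference from 1 to 2 weeks, -2.26 ± 0.42 (limma adjusted p = 0.00468), followed by *Atp5g1* with -1.31 and *Ndufs1* with -1.30. Larger differences that were not called were -2.49 for *Cox8b*, -1.91 for *Ndufa4l2* and -1.65 for *Cox6a2*. From 2 to 5 weeks, again among the genes called, *Cox7a1* gained 1.98 (limma adjusted p = 0.00221), *Cox6b2* 1.88 (limma adjusted p = 0.000777) and *Uqcr11* 1.48 (limma adjusted p = 0.000216), while 2.63 for *Cox8b* was not called. By complex, the further decline from 1 to 2 weeks was called for 24 of 36 subunits of complex I, 4 of 4 of complex II, 7 of 8 of complex III, 8 of 11 of complex IV and 12 of 15 of complex V. The gain from 2 to 5 weeks was called for 32, 4, 8, 10 and 14. Of the 8 assembly factors of complex I, 1 and 0 were called. In controls 0 of 91 genes differed between any weeks by limma, edgeR or DESeq2 after adjustment (unadjusted limma p-values under 0.05 numbered 3, 2 and 0 from 1 to 2, 2 to 5 and 1 to 5 weeks). Of all genes 0.0177%, 0.0471% and 0% were called lower and 0%, 0.0412% and 0% higher.

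In all, 62 genes were lower at each of the 3 weeks, 9 at 2 weeks alone and 3 at none (*Cox7a2l*, *Ndufaf1* and *Cox4i2*), against 4.73%, 12.4% and 68.9% of all genes. Across the 74 widely expressed subunits the log2 fold changes of 1 and 2 weeks went together (Pearson r = 0.846, Spearman rho = 0.830), those of 2 and 5 weeks less so (0.651 and 0.524), and those of 1 and 5 weeks least (0.424 and 0.369). The weeks share no samples, but genes are not independent replicates, and these values are a description. Between the log2 control level per kilobase and the log2 fold change Pearson r was -0.157, -0.270 and -0.345 at 1, 2 and 5 weeks and Spearman rho -0.084, -0.175 and -0.073, both as a description.

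The genes around the set were described from lists. Their counts stand against all genes, of which 15.6% were lower and 18.7% higher at 1 week. At 2 weeks these shares were 28.8% and 28.9%, and at 5 weeks 7.9% and 7.67%. Of 40 tested assembly factors outside the symbol rule 14 were lower and 5 higher after 1 week, 29 and 3 after 2 weeks and 10 and 0 after 5 weeks, with medians of -0.34, -0.66 and -0.29. *Coa6*, which helps to deliver copper to complex IV, fell at 1 and 2 weeks, with log2 fold changes of -0.99 and -1.77. *Acad9*, of the complex I assembly machinery, fell at all 3 weeks, with -0.82, -1.69 and -0.64. *Cox11*, another copper factor, rose by 0.86 and 1.07 at 1 and 2 weeks, and *Cox20*, which helps to mature a complex IV subunit, rose by 1.44 at 2 weeks.

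Carriers and electron donors that feed the chain, ubiquinone synthesis included, had 11, 17 and 9 of 19 lower and 0 higher, with medians of -0.67, -1.04 and -0.45. *Cycs*, cytochrome c, fell with log2 fold changes of -0.74, -1.65 and -0.86. *Etfa*, which hands over electrons from fatty acid oxidation, fell with -1.07, -2.33 and -0.70. *Coq9*, needed for ubiquinone synthesis, fell with -0.82, -1.86 and -0.82. Of 7 genes that move ATP and phosphate across the mitochondrial membranes 5, 5 and 3 were lower and 0 higher, with medians of -0.38, -0.70 and -0.36. *Vdac1*, the outer membrane channel, fell with -0.82, -1.77 and -0.52.

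Mitochondrial ribosomal proteins make the partner subunits from mitochondrial DNA. Of the 77 tested 29 were lower and 3 higher after 1 week, 56 and 3 after 2 weeks and 16 and 0 after 5 weeks, with medians of -0.33, -0.68 and -0.33. The mitochondrial mRNAs themselves could be counted for 7 of 13 genes, the other 6 being listed at or near 0. Of these 3, 7 and 0 were lower, with medians of -0.83, -2.66 and -0.54, and *mt-Nd2*, a complex I subunit, had log2 fold changes of -1.04, -3.28 and -0.64. Their shares of all reads, and those of the rest of the mitochondrial genome, were 9.25%, 11.4% and 8.53% in controls and 6.13%, 3.09% and 6.78% in OE kidneys.

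Regulators of mitochondrial biogenesis did not move one way. Of 17 tested 4 were lower and 4 higher after 1 week, 9 and 4 after 2 weeks, and 5 and 0 after 5 weeks, with medians of -0.10, -0.47 and -0.30. Of all genes 15.6% were lower and 18.7% higher after 1 week, 28.8% and 28.9% after 2 weeks, and 7.9% and 7.67% after 5 weeks. For so few genes the counts of 1 week and those higher at 2 weeks were near these shares. The nuclear receptor *Esrrg* fell with log2 fold changes of -0.90, -2.18 and -0.90, and its relative *Esrra* with -0.46, -1.23 and -0.70. The coactivator *Ppargc1b* fell at 1 and 2 weeks, with -0.88 and -1.52. *Nrf1* rose by 1.10 and 1.43, *Yy1* by 1.16 and 1.42 and the coactivator *Pprc1* by 1.08 and 1.45 at 1 and 2 weeks, with 0.19, 0.06 and 0.37 not called at 5 weeks. For 3 regulators named after their values were seen, *Ppargc1a* measured -0.10, -1.02 and -0.56, of which the value at 2 weeks passed, *Tfam* -0.04, -0.47 and -0.49, of which the last 2 passed, and *Gabpa* -0.06, -0.17 and -0.07, of which none passed.

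**Figure D5:**
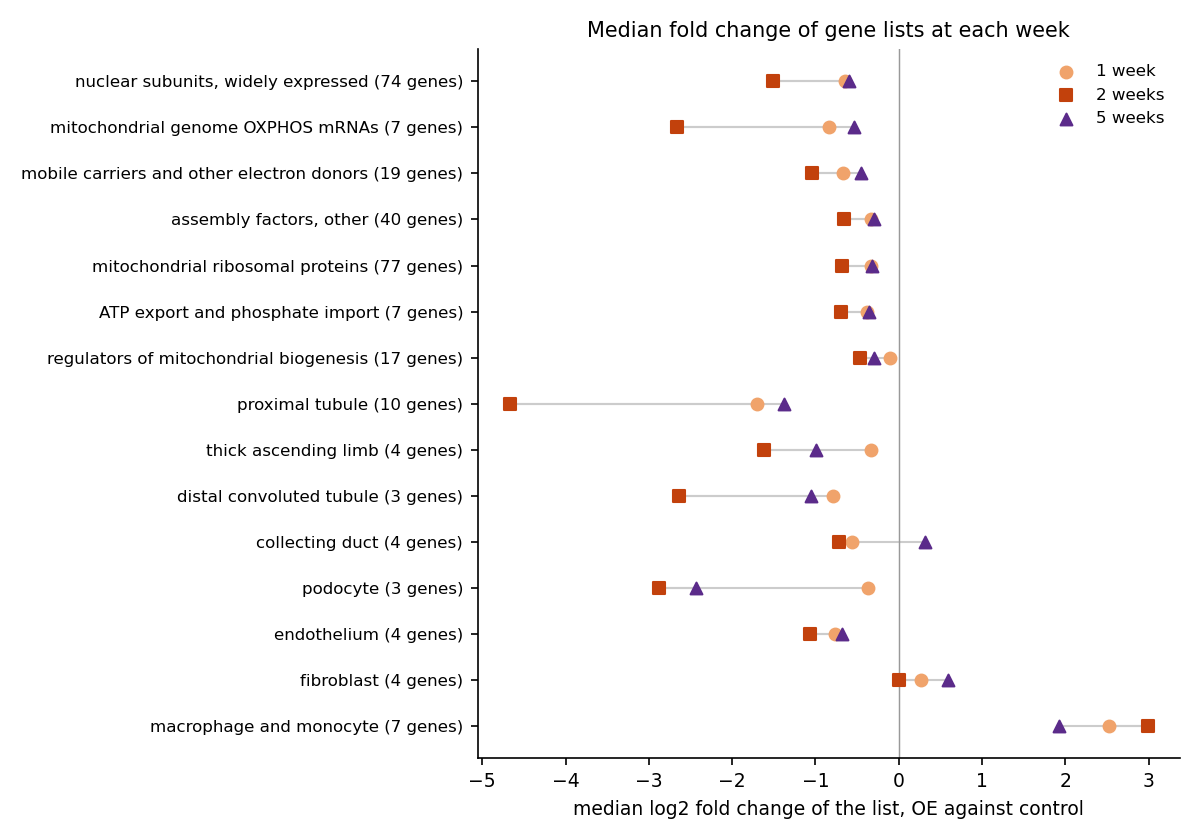
Median log2 fold change of OE against control (horizontal axis) at 1, 2 and 5 weeks (circle, square and triangle) for the widely expressed subunits, the lists of related genes and the markers of kidney cell types, 1 line each. The subunits go from -0.65 to -1.52 and back to -0.60, and the mitochondrial mRNAs reach -2.66 at 2 weeks.

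Markers of kidney cell types moved in the same libraries. Of all genes 15.6%, 28.8% and 7.9% were lower at 1, 2 and 5 weeks, and 18.7%, 28.9% and 7.67% higher. Of 10 proximal tubule markers 6, 10 and 5 were lower and 0 higher, with medians of -1.70, -4.67 and -1.37. Their summed normalized reads ranged from 333723 to 767714 over the controls, and in OE kidneys from 116878 to 279751 at 1 week, 13903 to 35057 at 2 weeks and 117399 to 335092 at 5 weeks. Markers of the thick ascending limb had medians of -0.33, -1.61 and -1.0 (1, 3 and 3 of 4 lower), those of the distal convoluted tubule -0.79, -2.63 and -1.05 (3 of 3 lower each time) and those of the collecting duct -0.56, -0.72 and 0.31 (2, 2 and 0 of 4 lower). Macrophage and monocyte markers were higher, 7, 7 and 6 of 7, with summed normalized reads of 2801 to 4131 over the controls and 9109 to 40489 in OE kidneys. Podocyte markers had medians of -0.37, -2.88 and -2.43 (0, 3 and 3 of 3 lower), endothelial markers -0.77, -1.06 and -0.68 (3, 4 and 4 of 4 lower), fibroblast markers 0.27, 0.00 and 0.59 (1 of 4 higher, at 5 weeks), hemoglobin and other red blood cell genes -2.30, -4.01 and -1.70 (4, 4 and 2 of 4 lower) and white fat markers -1.33, -1.45 and -1.47 (1 of 3 lower, at 2 weeks). The part of cell makeup in the fall of the oxidative phosphorylation transcripts was not tested.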

How the data were processed

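The deposited signal values are reads per gene divided by a size factor per library. The authors mapped single reads of poly(A)-selected kidney RNA to mm10 with STAR, counted them with HTSeq and normalized with DESeq2, with no versions given in the sources used here. Every value came out as a whole number of reads (within 0.001) once divided by the value of a single read. Genes with a mean above 10 were tested on log2(value + 1) with limma 3.58.1 (trend, 1 fit of 18 libraries, 12 residual degrees of freedom) in R 4.3.3, with Benjamini-Hochberg adjustment over all 16984 genes and interaction terms between weeks. Fold changes on this scale understate changes of genes with few reads. Coordinates are from a GRCm38 annotation that matched 99.5% of the gene identifiers.

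The genes and lists were chosen with earlier results of these data known. Named by rule were the 2 subunits of each complex with the highest reads in controls, the largest changes called per week and complex, the 3 largest per week in the set, all of complex II, both genes of each isoform pair, genes called against their complex, and up to 3 called genes per list and week. A gene that the rule names is not reported here. Others are said to have been chosen after their values were seen. Alternatives were other pseudocounts, filters, scalings, edgeR 4.0.16 and DESeq2 1.42.0 on the recovered reads, robust moderation, same-week fits, *Xist* or *Cidea* as a covariate, the replicate number as a block, and leaving out each library. On simulated data limma recovered a log2 change of 1 in 50.5%, 54.5% and 63.4% of the altered genes for 1, 2 and 5 weeks, and a change of 0.5 in 4.12%, 7.78% and 6.06%. The altered genes were few, 103, 110 and 101 by 1 and 97, 90 and 99 by 0.5, of 16349 to 16383 simulated. Many more genes are called in the data, so that these shares do not give the power of the tests here. Ratios of isoforms were tested by a two-sided exact permutation test (SciPy 1.17.1, Python 3.11.15), and figures drawn with matplotlib 3.10.9. Counting did not state strand, and *Ndufaf2*, *Atp5o*, *Ndufb6* and *Ndufa13* share 65.6%, 47.9%, 39.0% and 30.0% of their exon length with other annotated genes.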

Additional observations from a re-analysis of the deposited data

Results flagged for a closer look

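The OE effect of the oxidative phosphorylation genes differed between weeks by the interaction term of limma, and these differences are given here as values. From 1 to 2 weeks 57 of 91 genes differed, the largest among them being *Cox7a1* with a difference of log2 fold changes of -2.26, *Atp5g1* with -1.31 and *Ndufs1* with -1.30. From 2 to 5 weeks 72 of 91 differed, the largest among them being *Cox7a1* with 1.98, *Cox6b2* with 1.88 and *Uqcr11* with 1.48.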

How the results depend on the processing

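The replicate number did not pair the libraries (same-numbered deviations correlated between -0.19 and 0.21, 2 of 9 pairs above 0.1, and 4 of 9 OE libraries matched their own number best). With the number as a block 75, 88 and 77 genes were lower at 1, 2 and 5 weeks, and 69 and 76 differed between 1 and 2 and between 2 and 5 weeks. The count lower at 5 weeks (69) was 44 with quantile normalization, 42 with library totals and 37 with same-week libraries alone, and 33 to 79 with 1 library left out (33 without the second OE library, 45 without the third control library). Calls of genes named in the text that quantile normalization ended, besides those given with their genes, were *Uqcrc1* (-0.18) and *Uqcrc2* (-0.35) at 1 week and *Ndufa4* (-0.35), *Ndufb8* (-0.28), *Sdhd* (-0.27) and *Atp5g3* (-0.19) at 5 weeks. Library totals ended those of *Ndufb8* (-0.28), *Sdhd* (-0.32) and *Atp5g3* (-0.36) at 5 weeks and of *Ndufa2* (-0.52) and *Atp5l* (-0.31) at 2 weeks, and the fit of 5 weeks alone those of *Ndufa4*, *Sdhc*, *Sdhd* and *Atp5g3*. Without the second OE library of 5 weeks the calls of *Ndufa4* (-0.47), *Sdhd* (-0.38), *Atp5g3* (-0.36) and *Uqcr11* (-0.54) were lost. *Ndufb8* was called higher at 1 week with quantile normalization (0.34). Genes higher were 1 at 1 week with quantile normalization and 2 at 2 weeks with library totals. Falls of more than 1 at 1 week (1) were 2 with DESeq2, *Xist* or *Cidea*, 0 with library totals, 4 with upper-quartile rescaling and 1 to 7 with 1 library left out. At 5 weeks (3) they were 1 with edgeR or same-week libraries and 0 to 6 with 1 left out. Genes differing between 1 and 5 weeks (0) were 4 with DESeq2, 2 with quantile normalization, 1 with edgeR, *Cidea*, a mean above 50, a pseudocount of 5, library totals or upper-quartile rescaling, and 0 to 2 with 1 left out. The causes were not tested. Over the libraries left out in turn, counts lower were 56 to 76 at 1 week and 86 to 88 at 2 weeks, and 39 to 71 and 60 to 78 genes differed from 1 to 2 and from 2 to 5 weeks.

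Isoform ratios that turned sign with 1 library left out were *Cox6b2* to *Cox6b1* at 1 week (-0.37 to 0.22, and 0.0077 with a pseudocount of 5) and 2 weeks (-0.0087 to 0.31), *Ndufa4l2* to *Ndufa4* at 1 week (-0.042 to 0.34), *Cox4i2* to *Cox4i1* at 2 weeks (-0.0098 to 0.69) and 5 weeks (-1.15 to 0.057), and *Cox8b* to *Cox8a* at 1 week (-2.81 to 0.22). *Cox7a2l* turned to -0.026 with *Cidea* and -0.014 with upper-quartile rescaling at 1 week (-0.13 to 0.19 with 1 left out), and at 5 weeks to 0.059 with quantile normalization, 0.13 with library totals and 0.00088 with upper-quartile rescaling (-0.070 to 0.039 with 1 left out). *Ndufb8* at 1 week spanned -0.027 to 0.15. Depth limits *Cox6a2*, *Cox4i2* and the testis isoforms, which have few reads.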
